A study of Homo sapiens with 18 samples.

Results

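The response of S100A16-knockdown cells to hydrogen peroxide (H2O2) was described from 6 of the 18 libraries of the study. These were 3 libraries of the S100A16 knockdown (KD) given 100 µM H2O2 for 2 h and 3 libraries of the same KD left untreated, chosen by their labels alone. All libraries came from A549, an established human lung adenocarcinoma line, and are labelled as biological replicates. For setting beside the KD there were 3 libraries of wild-type (WT) A549 given 100 µM H2O2 for 2 h and 3 of untreated WT. The remaining 6 libraries, of stable hnRNPM and MagoHB knockdowns, entered only alternative fits. The S100A16 KD is stable, so treated and untreated KD cells carry it alike. How it was made and from how many clones were not stated in the labels, and its comparison line is WT, with no vector control. The study's title concerns alternative splicing under oxidative stress. The counts are per gene, so splicing within a gene was not analysed here.

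H2O2 is a diffusible oxidant that peroxiredoxins, glutathione peroxidases and catalase remove. It oxidises cysteines of signalling proteins, and through mitogen-activated protein kinases (MAPK) it is known to induce immediate early genes such as EGR1, FOS and JUN within hours. NRF2 is the transcription factor that raises antioxidant genes under oxidants, and A549 cells carry a KEAP1 mutation that keeps it active without a stimulus. S100A16 is a small calcium-binding protein of the S100 family.

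Poly(A)-selected RNA was sequenced, and levels are given as CPM, a gene's read count relative to the library's total, scaled by the trimmed mean of M-values (TMM) among the 6 KD libraries or, for WT, among the 6 WT libraries. Levels of KD and WT are therefore not on one scale, and the lines were compared only through their log2 fold changes. Total counts were 38068784 to 43694887 in KD H2O2 libraries and 39523692 to 45245521 in untreated KD libraries. A fold change is called at an adjusted p under 0.05 in edgeR's quasi-likelihood test over all genes tested, fitted to the 6 KD libraries. Unless another fit is named, every adjusted p below comes from that test. Likewise, the adjusted p of an interaction comes from the same test on the 12 KD and WT libraries. Replicates were 3 per group throughout. Nothing in the labels ties them to separate cultures beyond the word biological, so the p-values measure the spread between these libraries.

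One library stood apart. KD untreated 1 held 1300 CPM, before scaling, from genes of short structured RNAs (7SK, 7SL, U and small nucleolar RNAs), against 240 to 254 in KD H2O2 libraries and 282 and 289 in KD untreated 2 and 3. Each result below was therefore also computed without it. The 13 genes listed to check A549 identity, among them keratins, aldo-keto reductases, ALDH1A1 and NQO1, summed to 20000 to 21000 CPM in KD H2O2 libraries and 18900 to 19600 CPM in untreated KD libraries, and CDKN2A, which A549 lacks by deletion, averaged 0.046 CPM. All 6 endothelial markers were under 1 CPM in every library. The leukocyte sum (156 to 165 CPM with H2O2, 146 to 156 CPM untreated) was mostly CD68, and the fibroblast sum (52.6 to 60.3 CPM with H2O2, 56.0 to 63.4 CPM untreated) was led by PDGFRA. Of 10 alveolar type II markers, 7 were under 1 CPM everywhere, and the sum (31.8 to 32.6 CPM with H2O2, 33.2 to 38.9 CPM untreated) was mostly ABCA3. Of the marker genes of other cell types, the endothelial VWF alone was called, lower with H2O2, at 0.12 ± 0.018 CPM with H2O2 and 0.41 ± 0.13 CPM untreated (SD, n = 3; adjusted p = 0.0484, a call lost in each of the 6 fits with 1 library left out).

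The knockdown target itself was low in all 6 libraries. S100A16 (GRCh38 chromosome 1, 153606886 to 153613145, minus strand) had 7.28, 7.80 and 6.93 CPM in KD H2O2 libraries, against 9.67, 8.99 and 8.39 CPM in untreated KD libraries. The groups did not overlap, and the log2 fold change of -0.30 (SE 0.09) missed the threshold (adjusted p = 0.069, and 0.254 without KD untreated 1). S100A16 was called in a fit, added after seeing the data, with a smooth trend in exon length removed (log2 -0.34, adjusted p = 0.0373). In WT cells the change was 0.06, and the interaction, which tests the difference between the responses of the KD and WT, was -0.36 (SE 0.08, adjusted p = 0.00935). That interaction was lost without KD untreated 1 (adjusted p = 0.0787).

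H2O2 raised 471 and lowered 330 of 20586 genes tested in the KD, which is 2.29% and 1.6% of them, and the changes were small. Among called genes averaging 5 CPM or more, the median absolute log2 fold change was 0.19, and the range was 0.12 to 0.75. Only 3 genes rose and 28 fell by 1.5-fold or more at any level. Of the called genes, 457 of those that rose had all 3 KD H2O2 libraries above all 3 untreated KD libraries, and 325 of those that fell had them all below. Over all genes tested, 10.8% lay above and 10.6% below in this way. The calls came from these same libraries, so the separation of called genes is no added support. Calls were more frequent at high levels, where 9.4% of the 3594 genes averaging 50 CPM or more rose and 4.17% fell, and the shares of abundant gene families below are to be read against these percentages. An unadjusted p under 0.05 was found for 3505 genes. By total counts alone, which shifts the median of all genes by -0.03, the split turned to 232 higher and 511 lower.

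How many genes were called depended on the libraries in the fit. Without KD untreated 1 there were 228 higher and 174 lower calls (1.08% and 0.821% of 21195 genes), of which 205 and 154 were also called with it. Without KD H2O2 2, the counts were 149 higher and 154 lower, and without KD untreated 2 they were 216 and 174. Without KD H2O2 1 there were 311 higher calls, and without KD H2O2 3 there were 185 lower calls. Of the 471 genes called higher, 92 kept their call in all 6 fits that left out 1 library, as did 83 of the 330 called lower. Such genes are described below as kept throughout, a term that does not cover the other fits. When the spread was estimated over all 18 libraries, 0 genes were called higher and 3 lower (MT-TY, MT-TC and MT-TN), with 1515 genes at an unadjusted p under 0.05. With all but the 3 libraries that stand apart from their replicates (KD untreated 1, hnRNPM KD 3 and MagoHB KD 2), 298 were higher and 66 lower. DESeq2 on the 6 KD libraries called 570 higher and 331 lower.

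Among genes averaging 5 CPM or more, the lowest called log2 fold changes were those of 2 mitochondrial transfer RNA (tRNA) genes, MT-TY and MT-TC. The circular mitochondrial genome is transcribed from both strands into long precursors, and tRNA sequences lie between the mRNAs and ribosomal RNAs and mark where the precursors are cut. Of 22 mitochondrial tRNA genes, 7 fell and 2 rose with H2O2 (31.8% and 9.09%, against 1.6% and 2.29% of all genes tested). The median log2 fold change over the 22 was -0.10, against -0.004 over all genes tested. The sequences of the 9 called genes are shown because they lie in 4 separate stretches of the molecule. They are given 5′ to 3′ as transcribed, from GENCODE 29 on GRCh38 (chromosome MT, coordinates identical to those in the count table), with the anticodon in capitals.
MT-TF, phenylalanine, 577 to 647, plus strand, lower with H2O2: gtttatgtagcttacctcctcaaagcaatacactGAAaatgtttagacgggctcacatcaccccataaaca
MT-TQ, glutamine, 4329 to 4400, minus strand, higher with H2O2: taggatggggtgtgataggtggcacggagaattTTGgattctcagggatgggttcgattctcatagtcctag
MT-TM, methionine, 4402 to 4469, plus strand, higher with H2O2: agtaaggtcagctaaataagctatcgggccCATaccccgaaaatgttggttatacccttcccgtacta
MT-TW, tryptophan, 5512 to 5579, plus strand, lower with H2O2: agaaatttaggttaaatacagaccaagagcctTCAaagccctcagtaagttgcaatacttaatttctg
MT-TA, alanine, 5587 to 5655, minus strand, lower with H2O2: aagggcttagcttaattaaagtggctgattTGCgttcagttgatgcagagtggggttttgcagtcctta
MT-TN, asparagine, 5657 to 5729, minus strand, lower with H2O2: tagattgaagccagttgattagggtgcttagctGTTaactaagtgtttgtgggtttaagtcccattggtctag
MT-TC, cysteine, 5761 to 5826, minus strand, lower with H2O2: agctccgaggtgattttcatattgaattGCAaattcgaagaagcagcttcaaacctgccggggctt
MT-TY, tyrosine, 5826 to 5891, minus strand, lower with H2O2: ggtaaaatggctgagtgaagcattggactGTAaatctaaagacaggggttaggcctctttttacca
MT-TE, glutamate, 14674 to 14742, minus strand, lower with H2O2: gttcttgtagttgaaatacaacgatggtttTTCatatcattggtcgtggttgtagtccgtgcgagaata

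MT-TY, MT-TC and MT-TN lie side by side. MT-TY had 98.1, 85.6 and 89.1 CPM in KD H2O2 libraries, against 155, 163 and 140 CPM in untreated KD libraries. MT-TC, which shares 1 base with MT-TY, had 115, 103 and 106 CPM with H2O2, against 177, 190 and 164 CPM untreated. MT-TN, which lies 31 bases from MT-TC beyond the origin of light-strand replication, had 71.9, 69.2 and 70.9 CPM with H2O2, against 99.1, 106 and 95.9 CPM untreated. In each of these genes all H2O2 libraries lay below all untreated ones, and KD untreated 1 lay between the other untreated libraries. The log2 fold changes were -0.75 for MT-TY (SE 0.06, adjusted p = 8.63e-06), -0.71 for MT-TC (SE 0.05, adjusted p = 3.67e-09) and -0.51 for MT-TN (SE 0.04, adjusted p = 5.83e-10). All 3 were kept throughout and were called in every fit, that over 18 libraries included.

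MT-TA and MT-TW continue this cluster towards MT-ND2. MT-TA had 72.6, 70.7 and 71.4 CPM with H2O2, against 85.0, 90.2 and 78.0 CPM untreated (log2 -0.24, adjusted p = 0.0013, kept throughout). MT-TW had 55.9, 47.8 and 49.0 CPM with H2O2, against 74.2, 71.7 and 61.4 CPM untreated (log2 -0.44, adjusted p = 0.00803, and 0.0662 without KD H2O2 3). The H2O2 and untreated libraries did not overlap for either gene, so all 5 tRNA genes between MT-ND2 and MT-CO1 fell. Apart from this cluster, MT-TE, beside MT-ND6, had 37.3, 32.3 and 30.7 CPM with H2O2, against 51.7, 48.6 and 40.8 CPM untreated (log2 -0.49, adjusted p = 0.0132). Its call was lost without KD H2O2 2 or KD untreated 2, with an adjusted p of up to 0.105. MT-TF, the first gene after the promoter region, had 11, 11.5 and 11.9 CPM with H2O2, against 18.2, 16.1 and 18.6 CPM untreated (log2 -0.62, SE 0.07, adjusted p = 2.22e-06, kept throughout).

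The tRNA genes that rose lie on the other side of MT-ND2. MT-TQ had 16.1, 17.1 and 15.8 CPM with H2O2, against 13.8, 13.4 and 11.9 CPM untreated (log2 0.33, adjusted p = 0.00563, and 0.0596 without KD H2O2 2). MT-TM had 10.97, 11.1 and 11.3 CPM with H2O2, against 9.41, 9.03 and 8.89 CPM untreated (log2 0.29, adjusted p = 0.0373, lost in each of the 6 fits with 1 library left out). MT-ND2, a subunit of respiratory complex I, was the 1 called gene of 13 mitochondrial mRNAs (7.69%, against 9.4% of genes averaging 50 CPM or more). It had 3189, 3180 and 3253 CPM with H2O2, against 2811, 2845 and 3083 CPM untreated (log2 0.14, adjusted p = 0.0373), with no overlap between the groups. That call was lost in 5 of the 6 fits with 1 library left out, with KD untreated 3 as the exception, and by total counts alone (adjusted p = 0.104). Both mitochondrial ribosomal RNAs were uncalled, and MT-RNR1 had 590 CPM in KD untreated 1 against 186 to 237 CPM in the other 5 KD libraries.

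In WT cells the same 5 clustered tRNA genes had log2 changes of -0.45 to -0.95, and none of the 5 interactions was called, with adjusted p from 0.0612 (MT-TW) to 0.765 (MT-TC). The responses did differ at MT-TF, which changed by 0.03 in WT (interaction -0.65, SE 0.14, adjusted p = 0.00988, lost without KD H2O2 1, KD H2O2 2 or WT H2O2 2 at up to 0.0644). They also differed at MT-ND2 (-0.18 in WT, interaction 0.31, adjusted p = 0.000193), MT-ND3 (0.04 in the KD, -0.22 in WT, adjusted p = 0.00357), MT-ND5 (-0.11 in the KD, -0.36 in WT, adjusted p = 0.00348), MT-TG (0.01 in the KD, -0.30 in WT, adjusted p = 0.00438) and MT-TT (-0.15 in the KD, -0.60 in WT, adjusted p = 0.000745). The last 5 of these interactions were called in all 12 fits with 1 library left out. The mitochondrial share of counts was 7.45% to 7.52% in KD H2O2 libraries and 7.56% to 7.87% in untreated KD libraries (exact permutation test, two-sided p = 0.1, the smallest that 3 against 3 allows). Counts at a tRNA gene can come from the tRNA or from a longer RNA that spans it, and the strand setting of the counting was not stated. MTND1P23 (log2 -0.37, adjusted p = 6.17e-05) and MTCO1P12 (-0.33, adjusted p = 0.0013), near-identical nuclear copies of mitochondrial sequence on chromosome 1, were also called lower, and reads may be split between such copies and the mitochondrial genes.

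**Figure D1:**
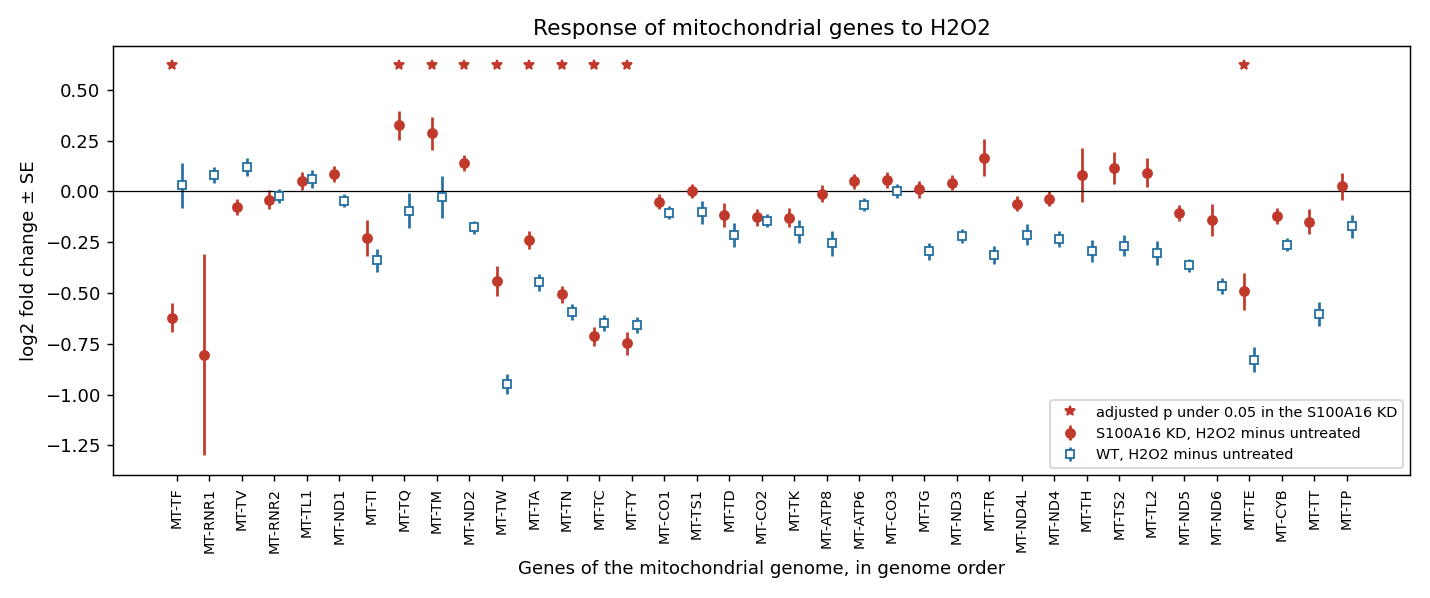
Log2 fold change of H2O2 minus untreated (y axis, bars are SE) for the 37 genes of the mitochondrial genome in genome order (x axis), in the S100A16 KD (filled circles) and in WT (open squares), 3 libraries a group; stars mark genes called in the KD. MT-TQ, MT-TM and MT-ND2 lie above 0 in the KD and the next 5 tRNA genes, MT-TW to MT-TY, lie at -0.24 to -0.75.

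Immediate early genes, which cells transcribe first after a stimulus, were the group in which the KD departed most from WT. Of 37 tested, 4 rose (KLF4, CYR61, CTGF and GADD45A) and 1 fell (BTG2) in the KD. The shares were 10.8% and 2.7%, against 2.29% and 1.6% of all genes tested. Genes averaging 50 CPM or more gave 9.4% and 4.17%. The median log2 fold change of the 37 was 0.10 in the KD against 0.46 in WT. The interaction called 98 genes higher and 158 lower in the KD than in WT (0.455% and 0.733% of 21551 genes tested), and 19 of the 37 immediate early genes were among the lower ones and 2 among the higher ones. These counts moved with single libraries. The 98 became 317 without KD H2O2 3, 175 without KD untreated 1, 163 without KD untreated 3, and 28 to 42 without WT H2O2 2, WT untreated 1 or WT untreated 2. The 158 became 84 to 103 without KD H2O2 1, KD H2O2 2, KD untreated 2, WT H2O2 2, WT untreated 1 or WT untreated 2. EGR1, a zinc finger transcription factor, had 2.23, 5.09 and 2.83 CPM in KD H2O2 libraries, against 1.53, 1.27 and 2.13 CPM in untreated KD libraries. FOS, which forms the AP-1 factor with JUN, had 8.18, 15.97 and 11.8 CPM with H2O2, against 7.91, 7.94 and 8.37 CPM untreated. KD H2O2 2 was the highest library for both genes, and for FOS the groups overlapped. Their log2 fold changes of 1.05 (SE 0.33, adjusted p = 0.137) and 0.57 (SE 0.27, adjusted p = 0.409) were not called in the KD, against 4.87 and 3.40 in WT. The interactions were -3.83 for EGR1 (SE 0.49, adjusted p = 0.00988) and -2.83 for FOS (SE 0.29, adjusted p = 0.00255).

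JUN had the smallest adjusted p of the interaction among the genes tested in both fits. It had 49.5, 52.6 and 50.2 CPM in KD H2O2 libraries, against 47.2, 50.4 and 53.3 CPM in untreated KD libraries, so the groups overlapped (log2 0.01, SE 0.05, adjusted p = 0.928). In WT cells, on their own scale, it averaged 67.3 CPM with H2O2 and 25.4 CPM untreated, a log2 fold change of 1.41 (interaction -1.40, SE 0.07, adjusted p = 5.17e-21). FOSB (0.09 in the KD, 3.10 in WT) and the nuclear receptor NR4A1 (0.05 in the KD, 2.59 in WT) also differed, with interactions at adjusted p of 1.18e-09 and 1.83e-13. So did IER2 (0.02 in the KD, 1.31 in WT, adjusted p = 5.47e-13), KLF10 (0.10 in the KD, 0.95 in WT, adjusted p = 1.83e-13) and the stress factor ATF3 (0.10 in the KD, 0.78 in WT, adjusted p = 1.62e-07). ZFP36, which promotes decay of AU-rich mRNAs, changed by 0.19 in the KD and 1.39 in WT (adjusted p = 3.4e-10). The interactions of EGR1, FOS and these 7 genes were called in all 12 fits with 1 library left out.

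The feedback genes that MAPK signalling induces gave 0 calls of 21 in the KD, with a median log2 fold change of -0.03 against 0.16 in WT, and 8 of the 21 were called lower in the interaction. DUSP1, a phosphatase that inactivates MAPKs, had 124, 142 and 132 CPM in KD H2O2 libraries, against 131, 136 and 115 CPM in untreated KD libraries. The groups overlapped (log2 0.06, adjusted p = 0.76), whereas the WT change was 1.31 (interaction -1.26, adjusted p = 0.000741). A missed threshold in the KD does not show that a gene did not move there.

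Among the early genes that rose in the KD, CYR61 and CTGF rose less than in WT by the test of the difference. CYR61, a matricellular protein, had 29.5, 30.3 and 28.9 CPM in KD H2O2 libraries, against 26.4, 24.3 and 24.5 CPM in untreated KD libraries. Its groups did not overlap (log2 0.24, adjusted p = 0.0142, lost without KD H2O2 2 or KD untreated 2 at up to 0.0785), and the WT change was 0.93 (interaction -0.70, adjusted p = 8.58e-08). CTGF, its relative, rose by 0.23 (adjusted p = 0.0257, lost without KD H2O2 1, KD H2O2 3 or KD untreated 1 at up to 0.163), against 1.06 in WT (interaction -0.83, adjusted p = 3.82e-08). GADD45A, a growth arrest gene, rose by 0.16 (adjusted p = 0.0175, lost without KD H2O2 3, KD untreated 1 or KD untreated 2 at up to 0.115), against -0.23 in WT (interaction 0.39, adjusted p = 0.000101). KLF4 rose by 0.26 (adjusted p = 0.0213, highest 0.153), and the antiproliferative gene BTG2 fell by 0.20 (adjusted p = 0.0175, highest 0.236), each with the call lost in some of the fits with 1 library left out. The KLF4 call was lost without KD H2O2 2, KD H2O2 3, KD untreated 1 or KD untreated 2, and the BTG2 call without KD H2O2 2 or KD untreated 2. With a smooth trend in exon length removed, none of the 4 higher calls held (adjusted p = 0.0734 for CYR61, 0.11 for CTGF, 0.136 for GADD45A and 0.056 for KLF4), and by total counts alone 1 of them, CYR61, held. The 4 higher calls became 2 without KD H2O2 2, 1 without KD H2O2 3, KD untreated 1 or KD untreated 2, and 7 without KD untreated 3.

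**Figure D2:**
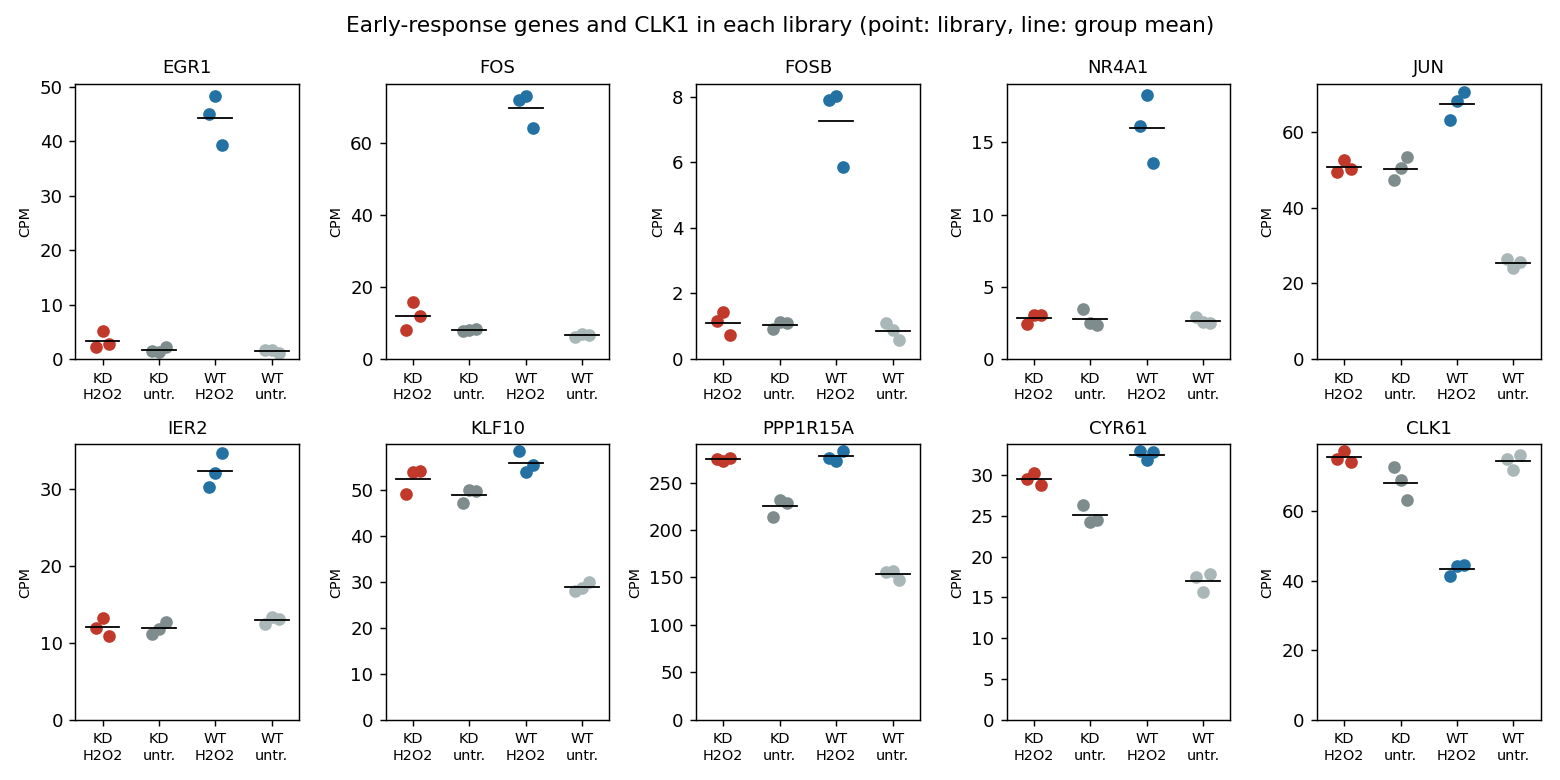
Level of 8 immediate early genes, PPP1R15A and CLK1 (y axis, CPM, from 0) in each library of the S100A16 KD with H2O2, the KD untreated, WT with H2O2 and WT untreated (x axis); points are libraries and lines group means, and KD and WT were scaled separately. JUN lies at 49.5 to 52.6 CPM with H2O2 and 47.2 to 53.3 CPM untreated in the KD, whereas CLK1 is lower with H2O2 in WT alone of the pairs shown.

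PPP1R15A was the gene with the smallest adjusted p among those that rose. It encodes GADD34, which recruits a phosphatase to reverse the block of translation in the integrated stress response. It had 275, 273 and 276 CPM in KD H2O2 libraries, against 214, 232 and 229 CPM in untreated KD libraries. The groups were well separated (log2 0.29, SE 0.04, adjusted p = 1.02e-05, kept throughout), and the WT change of 0.86 was larger (interaction -0.57, SE 0.05, adjusted p = 4.88e-11). Of 35 genes of the ATF4 program, to which it belongs, 4 rose (with ATF4, SHMT2 and MTHFD2) and 1 fell (SLC7A11), and the median was 0.06. These shares, 11.4% higher and 2.86% lower, are near the 9.4% and 4.17% of genes averaging 50 CPM or more. The 4 calls became 7 without KD untreated 3, 1 without KD H2O2 3, and 2 without KD H2O2 1, KD untreated 1 or KD untreated 2. ATF4 itself, the transcription factor of the program, rose by 0.14 (adjusted p = 0.0348), a call lost in 5 of the 6 fits with 1 library left out, KD untreated 3 being the exception. SHMT2 (0.22, adjusted p = 0.0153) and MTHFD2 (0.15, adjusted p = 0.015), enzymes of mitochondrial folate metabolism, lost their calls in some of those fits. For SHMT2 these were without KD H2O2 1, KD H2O2 3 or KD untreated 2, at up to 0.112, and for MTHFD2 without KD H2O2 3 or KD untreated 1, at up to 0.132. DDIT3, the stress factor CHOP, stood at 30.3 ± 4.1 CPM with H2O2 and 27.7 ± 0.6 CPM untreated (SD, n = 3; adjusted p = 0.327).

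The antioxidant genes moved little. Of 29 peroxide-scavenging genes, 4 rose (PRDX5, GPX4, SOD1 and SRXN1) and 0 fell. That is 13.8% higher, against 2.29% of all genes tested and 9.4% of genes averaging 50 CPM or more. The median log2 fold change was 0.03. PRDX5, a peroxiredoxin of mitochondria, peroxisomes and cytosol, had 184, 193 and 180 CPM in KD H2O2 libraries, against 157, 158 and 171 CPM in untreated KD libraries (log2 0.20, adjusted p = 0.0023, kept throughout). Its groups did not overlap, and KD untreated 3 was the untreated library nearest to the treated ones. GPX4, which reduces lipid peroxides, rose by 0.14 (adjusted p = 0.0176), as did the superoxide dismutase SOD1 (0.14, adjusted p = 0.0252) and SRXN1, which repairs oxidised peroxiredoxins (0.14, adjusted p = 0.0301). Each of these 3 lost its call in 4 of the 6 fits with 1 library left out, among them those without KD H2O2 2, KD untreated 1 and KD untreated 2 (highest adjusted p = 0.129, 0.154 and 0.185), and by total counts alone.

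NRF2 targets gave 3 higher (SRXN1, PGD and AKR1C2) and 2 lower calls (SLC7A11 and ABCC3) among 37, with a median of 0.03. These shares, 8.11% higher and 5.41% lower, are near the 9.4% and 4.17% of genes averaging 50 CPM or more. HMOX1, the heme oxygenase gene that NRF2 and BACH1 control, had 16.3, 14.9 and 16.2 CPM with H2O2, against 14.4, 13.4 and 15.7 CPM untreated, with overlap (log2 0.12, SE 0.07, adjusted p = 0.384). TXNRD1, thioredoxin reductase, had 1886, 1884 and 1827 CPM with H2O2, against 1843, 1831 and 1794 CPM untreated, also with overlap (log2 0.03, SE 0.04, adjusted p = 0.717). SLC7A11, the cystine importer that feeds glutathione synthesis, had 355, 356 and 342 CPM with H2O2, against 429, 408 and 397 CPM untreated. All its treated libraries lay below the untreated ones (log2 -0.23, SE 0.04, adjusted p = 0.000341, kept throughout). The SLC7A11 call was lost in the fit of 15 libraries, without the 3 that stand apart. The exporter ABCC3 fell by 0.16 (adjusted p = 0.00728, kept throughout). PGD (0.13, adjusted p = 0.0434) and AKR1C2 (0.15, adjusted p = 0.0413) lost their calls by total counts alone and without KD H2O2 2 or KD untreated 2, PGD also without KD H2O2 1 or KD untreated 1, and AKR1C2 also without KD untreated 3 (highest adjusted p = 0.212 and 0.351).

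Genes that process RNA rose in several lists. Heterogeneous nuclear ribonucleoproteins (hnRNPs) bind nascent transcripts and regulate splicing, and 8 of 34 rose while 0 fell (23.5%, against 9.4% of genes averaging 50 CPM or more). The log2 fold change was positive for 33 of the 34, against 64.4% of genes averaging 50 CPM or more. Their median was 0.09, against 0.03 over genes at that level and 0.02 for these 34 in WT. In 20 of the 34, all 3 H2O2 libraries lay above all 3 untreated ones, which held for 27.9% of genes at that level. HNRNPDL had 458, 472 and 472 CPM in KD H2O2 libraries, against 416, 378 and 377 CPM in untreated KD libraries. The groups did not overlap, and KD untreated 1 was the highest untreated library (log2 0.26, SE 0.04, adjusted p = 0.000119, kept throughout). Its WT change was 0.03 (interaction 0.23, adjusted p = 0.0183, lost without WT H2O2 2 or WT untreated 2 at up to 0.0891). The count of 8 became 2 without KD H2O2 2, 3 without KD H2O2 1 or KD untreated 2, and 6 without KD untreated 1.

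HNRNPD (AUF1) rose by 0.18 (adjusted p = 0.00539, and 0.0601 without KD H2O2 2) and SYNCRIP (hnRNP Q) by 0.16 (adjusted p = 0.0116, lost without KD H2O2 2 or KD untreated 2 at up to 0.156). HNRNPA1, which has many processed copies so that its counts are uncertain, rose by 0.16 (adjusted p = 0.0126, lost without KD H2O2 1, KD H2O2 2 or KD untreated 2 at up to 0.105). HNRNPM, the target of another knockdown of the study, had 1405, 1472 and 1315 CPM with H2O2, against 1317, 1254 and 1251 CPM untreated. Its lowest treated library was just under the highest untreated one, KD untreated 1 (log2 0.13, adjusted p = 0.059, and 0.0424 without that library). In WT it changed by -0.07 (interaction 0.20, adjusted p = 0.0394, lost without KD H2O2 2, WT H2O2 1, WT H2O2 2, WT untreated 1 or WT untreated 2, with p reaching 0.132).

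SR proteins promote exon inclusion, and CLK and SRPK kinases phosphorylate them. Of 34 SR and related factors and kinases, 7 rose and 1 fell, with a median of 0.06 in the KD and -0.03 in WT. The shares were 20.6% higher and 2.94% lower, against 9.4% and 4.17% of genes averaging 50 CPM or more. SRSF4 had 388, 372 and 362 CPM in KD H2O2 libraries, against 336, 318 and 323 CPM in untreated KD libraries (log2 0.20, adjusted p = 0.00178, kept throughout). SRSF5 had 339, 344 and 341 CPM with H2O2, against 302, 305 and 293 CPM untreated (log2 0.19, adjusted p = 0.00192, kept throughout). Neither gene's groups overlapped. SRRM2, a long nuclear speckle scaffold, fell by 0.19 (adjusted p = 0.00858, 0.0541 without KD H2O2 3, and 0.0656 with a trend in exon length removed), a call also lost in the fit of 12 libraries. RSRC1 rose by 0.17 (adjusted p = 0.00727, and 0.0933 without KD H2O2 2). The 7 higher calls became 2 without KD H2O2 2, and 4 without KD H2O2 1 or KD untreated 3.

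CLK1, the kinase with the next smallest after JUN, had 75.1, 77.5 and 74.2 CPM in KD H2O2 libraries, against 72.8, 68.9 and 63.2 CPM in untreated KD libraries. Its treated libraries were all higher (log2 0.15, SE 0.05, adjusted p = 0.055, and 0.0256 without KD untreated 1). In WT cells CLK1 changed by -0.78, and the interaction was 0.92 (SE 0.06, adjusted p = 2.58e-15).

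The core spliceosome contributed 9 higher calls and 1 lower of 68 genes (13.2% higher, against 9.4% of genes averaging 50 CPM or more), with a median of 0.06. In 20 of the 68, all 3 H2O2 libraries lay above all 3 untreated ones, a share near the 27.9% of genes at that level. The Sm proteins form rings on spliceosomal small nuclear RNAs. SNRPD1 had 214, 233 and 213 CPM in KD H2O2 libraries, against 190, 178 and 183 CPM in untreated KD libraries (log2 0.26, adjusted p = 8.49e-05). SNRPF had 165, 175 and 168 CPM with H2O2, against 149, 141 and 146 CPM untreated (log2 0.22, adjusted p = 0.000322), and its exons overlap those of CCDC38. SNRPA1, a U2 protein, had 52.8, 54.8 and 55.9 CPM with H2O2, against 46.2, 44.4 and 46.9 CPM untreated (log2 0.25, adjusted p = 0.00151). None of these overlapped between groups. SNRNP27 (0.31, adjusted p = 0.00692; its exons overlap those of MXD1) and SNRNP35 (0.26, adjusted p = 0.00303) rose too, and all 5 were kept throughout, SNRNP27 losing its call with a replicate block (adjusted p = 0.115) and in the fit of 15 libraries. PRPF8, the large scaffold of the catalytic core, fell by 0.14 (adjusted p = 0.0337, lost without KD H2O2 2, KD H2O2 3, KD untreated 1 or KD untreated 2 at up to 0.195). The 9 calls became 5 without KD H2O2 2 or KD untreated 2.

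The exon junction complex marks spliced junctions and feeds nonsense-mediated decay. Of 19 genes of the complex and of decay, 4 rose and 0 fell (21.1% higher, against 9.4% of genes averaging 50 CPM or more). Their median was 0.01, which turns negative by total counts alone. MAGOHB, the target of the third knockdown, had 116, 119 and 113 CPM in KD H2O2 libraries, against 105, 106 and 101 CPM in untreated KD libraries (log2 0.16, adjusted p = 0.00775, and 0.0916 without KD H2O2 2). Its groups did not overlap. Its near-identical copy MAGOH, with which its reads may be shared, stood at 39.0 ± 1.8 CPM with H2O2 and 35.0 ± 0.9 CPM untreated (SD, n = 3; log2 0.16, adjusted p = 0.0944). PYM1, which takes the complex apart, rose by 0.24 (adjusted p = 0.00585, and 0.0871 without KD H2O2 2), the export adaptor ALYREF by 0.18 (adjusted p = 0.0125) and the decay factor UPF3A by 0.13 (adjusted p = 0.0393). ALYREF lost its call without KD H2O2 2, KD H2O2 3, KD untreated 1 or KD untreated 2 (at up to 0.101), and UPF3A in every such fit other than that without KD H2O2 3 (at up to 0.212). All 4 calls were lost without KD H2O2 2, and 2 remained in number without KD untreated 1 or KD untreated 2.

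Hosts of small nucleolar RNAs, spliced transcripts that nonsense-mediated decay often degrades, gave 4 higher calls of 19 with a median of 0.05. That is 21.1% higher, against 2.29% of all genes tested and 9.4% of genes averaging 50 CPM or more. EPB41L4A-AS1 rose by 0.25 (adjusted p = 0.00197, kept throughout), although it overlaps EPB41L4A. ZFAS1 (0.15, adjusted p = 0.0181) and SNHG6 (0.16, adjusted p = 0.0256) lost their calls in 4 and 5 of the 6 fits with 1 library left out, among them those without KD H2O2 3, KD untreated 1 and KD untreated 3, at up to 0.126 and 0.149. The 4 calls became 1 without KD H2O2 3, KD untreated 1 or KD untreated 3, and 2 without KD H2O2 1 or KD H2O2 2. Among 7 nuclear long noncoding RNAs and paraspeckle proteins, PSPC1 alone was called (0.16, adjusted p = 0.00539, kept throughout). This 1 call makes a share of 14.3%, against 9.4% of genes averaging 50 CPM or more.

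**Figure D3:**
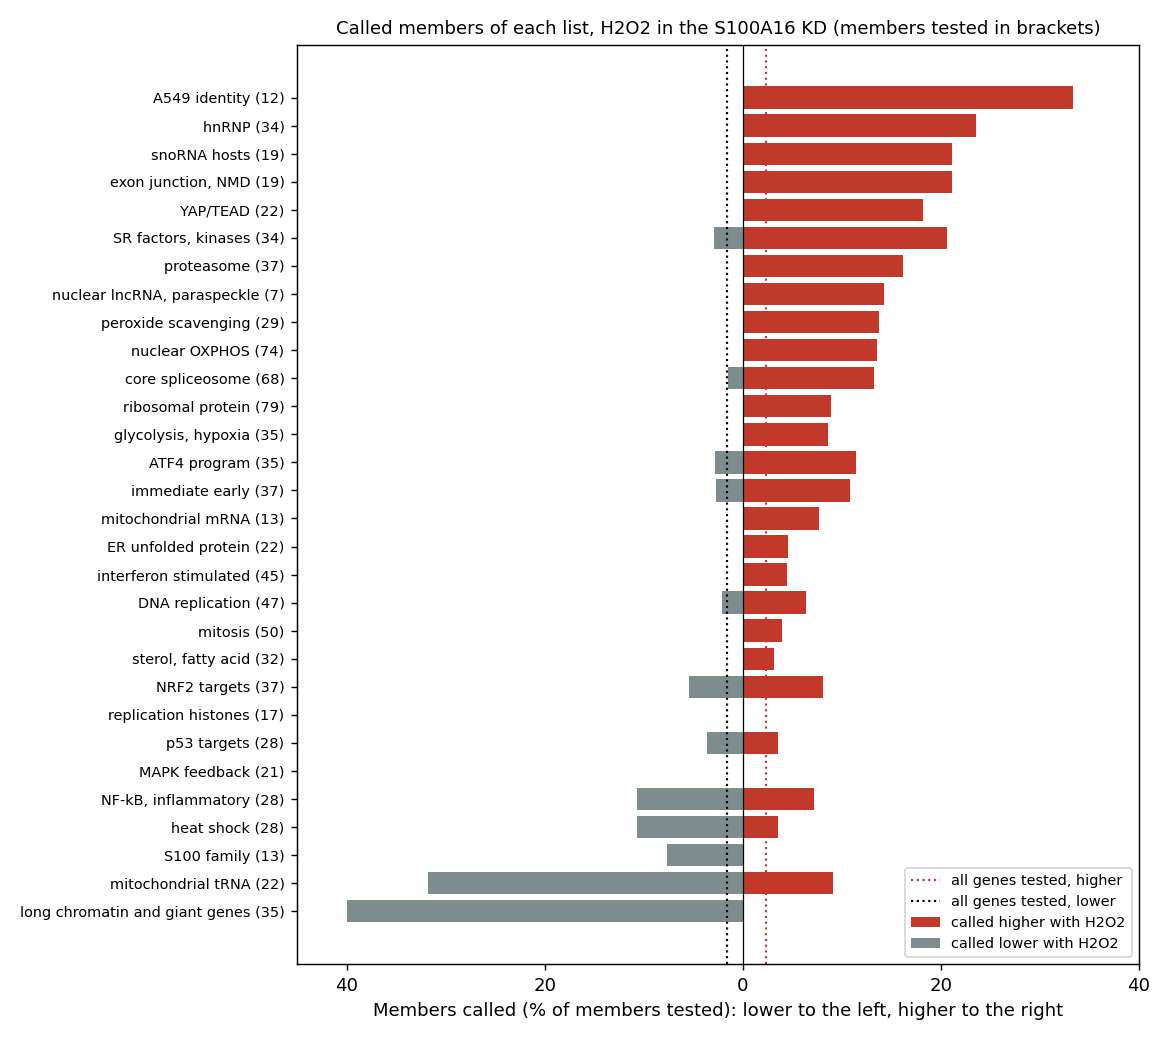
Share of each list's tested members (number in brackets) called higher (red, to the right) or lower (grey, to the left) with H2O2 in the S100A16 KD, in percent, with dotted lines at the shares over all genes tested (2.29% higher, 1.6% lower). RNA-processing, proteasome and oxidative phosphorylation lists lie to the right, and mitochondrial tRNA genes and long chromatin and giant genes to the left. The shares of genes averaging 50 CPM or more, 9.4% higher and 4.17% lower, are not drawn. Ribosomal protein genes (8.86%) lie below that 9.4%, and core spliceosome (13.2%) and oxidative phosphorylation genes (13.5%) little above it.

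Of 79 ribosomal protein genes 7 rose and 0 fell (8.86%, a share near the 9.4% of genes averaging 50 CPM or more). Their median log2 fold change was 0.06 in the KD, against 0.03 over genes at that level, and 0.11 in WT. RPL24 had 242, 254 and 258 CPM in KD H2O2 libraries, against 220, 226 and 221 CPM in untreated KD libraries (log2 0.18, adjusted p = 0.00352, kept throughout), with no overlap. RPS2 (0.19, adjusted p = 0.00238) and RPL36A (0.21, adjusted p = 0.00197) were kept throughout as well. RPL36A and RPL36AL (0.27, adjusted p = 5.52e-05, kept throughout) are near-identical copies of one protein gene, so reads may be shared between them, and the exons of RPS2 hold SNORA10. Without KD untreated 3 the 7 calls became 15, without KD untreated 1 they became 4, and without KD H2O2 2 or KD untreated 2 they became 3.

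Nuclear genes of oxidative phosphorylation gave 10 higher and 0 lower calls of 74, with a median of 0.08 in the KD and 0.10 in WT. The share called higher was 13.5%, against 2.29% of all genes tested and 9.4% of genes averaging 50 CPM or more. COX5B, a subunit of cytochrome c oxidase, had 98.6, 96.9 and 97.3 CPM in KD H2O2 libraries, against 80.0, 78.2 and 87.6 CPM in untreated KD libraries (log2 0.25, adjusted p = 0.000232). The complex I subunit NDUFS5 had 488, 508 and 511 CPM with H2O2, against 410, 404 and 462 CPM untreated (log2 0.24, adjusted p = 0.000777). Both were kept throughout and did not overlap, and KD untreated 3 was their highest untreated library. ATP5H, of ATP synthase, rose by 0.19 (adjusted p = 0.00192, kept throughout). The 10 calls became 4 without KD H2O2 2 and 5 without KD untreated 1 or KD untreated 2.

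The proteasome gave 6 higher and 0 lower calls of 37 (16.2% higher, against 9.4% of genes averaging 50 CPM or more). Of the 37, 31 were positive, against 64.4% of genes averaging 50 CPM or more. The median of the 37 was 0.06 in both lines. PSMC5, an ATPase of its base, had 400, 421 and 404 CPM with H2O2, against 351, 362 and 373 CPM untreated, without overlap (log2 0.17, adjusted p = 0.00534, and 0.0695 without KD H2O2 2). PSMD7 (0.15, adjusted p = 0.0158) and PSMB2 (0.25, adjusted p = 0.0221) lost their calls without KD H2O2 2 or KD untreated 1, PSMD7 also without KD H2O2 1 or KD untreated 3, and PSMB2 also without KD H2O2 3 (highest adjusted p = 0.107 and 0.152). The 6 calls became 0 without KD H2O2 2, 1 without KD untreated 1 and 3 without KD H2O2 1, KD H2O2 3 or KD untreated 2.

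Long genes fell. A list of 35 long genes held chromatin regulators, transcription cofactors, giant scaffolds and ubiquitin ligases. It was drawn up with earlier results of these data in view, so its share of calls is no independent support. Of the 35, 14 fell and 0 rose (40%, against 4.17% of genes averaging 50 CPM or more). Among nuclear genes averaging 5 CPM or more with exons over 12000 bases, 13.8% fell. For the 35, the median log2 fold change was -0.15, the median exon length 15417 bases, and 32 were not above 0. Of genes averaging 50 CPM or more, 64.4% were above 0. KMT2C, a histone H3 lysine 4 methyltransferase, had 59.4, 61.2 and 57.3 CPM in KD H2O2 libraries, against 76.6, 74.3 and 70.5 CPM in untreated KD libraries (log2 -0.32, adjusted p = 3.49e-05). Its relative KMT2D had 97.9, 93.3 and 86.1 CPM with H2O2, against 117, 108 and 114 CPM untreated (log2 -0.29, adjusted p = 5.79e-05). AHNAK, a giant membrane-associated scaffold, had 478, 464 and 451 CPM with H2O2, against 600, 579 and 548.8 CPM untreated (log2 -0.31, adjusted p = 8.63e-06). All treated libraries lay below all untreated ones for these genes, and KD H2O2 3 was the lowest library. KMT2A (-0.31, adjusted p = 0.00816) and the ubiquitin ligase HUWE1 (-0.26, adjusted p = 8.49e-05) fell as well, and these 5 were kept throughout. KMT2A lost its call in the fit of 12 libraries (adjusted p = 0.191), and both KMT2A and HUWE1 lost theirs in the fit of 15. In that fit of 15 libraries, 3 of the 14 calls stayed. The 14 calls became 8 without KD H2O2 2 or KD H2O2 3, and 7 without KD untreated 1.

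Further long genes were among the smallest adjusted p and the lowest fold changes. RNF213, a giant ubiquitin ligase of 28570 exon bases, had 349, 347 and 323 CPM with H2O2, against 449, 412 and 418 CPM untreated (log2 -0.33, adjusted p = 6.5e-06). AHNAK2 had 262, 246 and 213 CPM with H2O2, against 335, 334 and 313 CPM untreated (log2 -0.45, adjusted p = 0.00539), and SOGA1 fell by 0.46 (adjusted p = 6.44e-05). Their groups did not overlap, and all 3 were kept throughout. AHNAK2 lost its call in the fit of 12 libraries (adjusted p = 0.117) and in that of 15.

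The relation to length held across the transcriptome. Among 11603 nuclear genes averaging 5 CPM or more, the median exon length was 3253 bases for those called higher, 9658 bases for those called lower and 4992 bases for all. Of 720 genes with exons over 12000 bases, 99 fell and 4 rose, and of 1345 genes with exons over 2000 and up to 3000 bases, 11 fell and 99 rose. The median log2 fold change was 0.05 in the class up to 3000 bases and -0.07 in the class over 12000 bases. In WT cells the same classes had medians of 0.03 and -0.07, and the medians of the interaction lay between -0.004 and 0.02 in all 8 classes. Spearman's rho between log2 fold change and exon length, across genes of the same libraries and so without a p, was -0.30 in the KD, -0.28 in the KD without KD untreated 1 and -0.30 in WT.

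By library, genes with exons over 8000 bases held 25.2%, 25.1% and 24.8% of counts in KD H2O2 libraries, against 25.8%, 26.0% and 25.9% in untreated KD libraries. The groups did not overlap (exact permutation test, two-sided p = 0.1, the smallest that 3 against 3 allows). With a smooth trend in exon length removed from each library, 335 genes were called higher and 272 lower, of which 455 were among the 801 called without it. The median exon lengths of the called genes were then 5595 bases for higher and 4208 bases for lower. Of the 14 long listed genes 6 stayed called, as did all 8 hnRNP calls, 7 of 9 core spliceosome calls, 5 of 10 oxidative phosphorylation calls, 4 of 7 ribosomal protein calls, 3 of 6 proteasome calls and 1 of 4 peroxide-scavenging calls. Of the higher calls, 6 of 7 for SR factors and kinases, 3 of 4 for exon junction and decay genes and 2 of 4 for snoRNA hosts stayed. The 7 mitochondrial tRNA genes, left out of the trend, stayed called. What part RNA quality or library preparation has in the length relation was not tested.

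**Figure D4:**
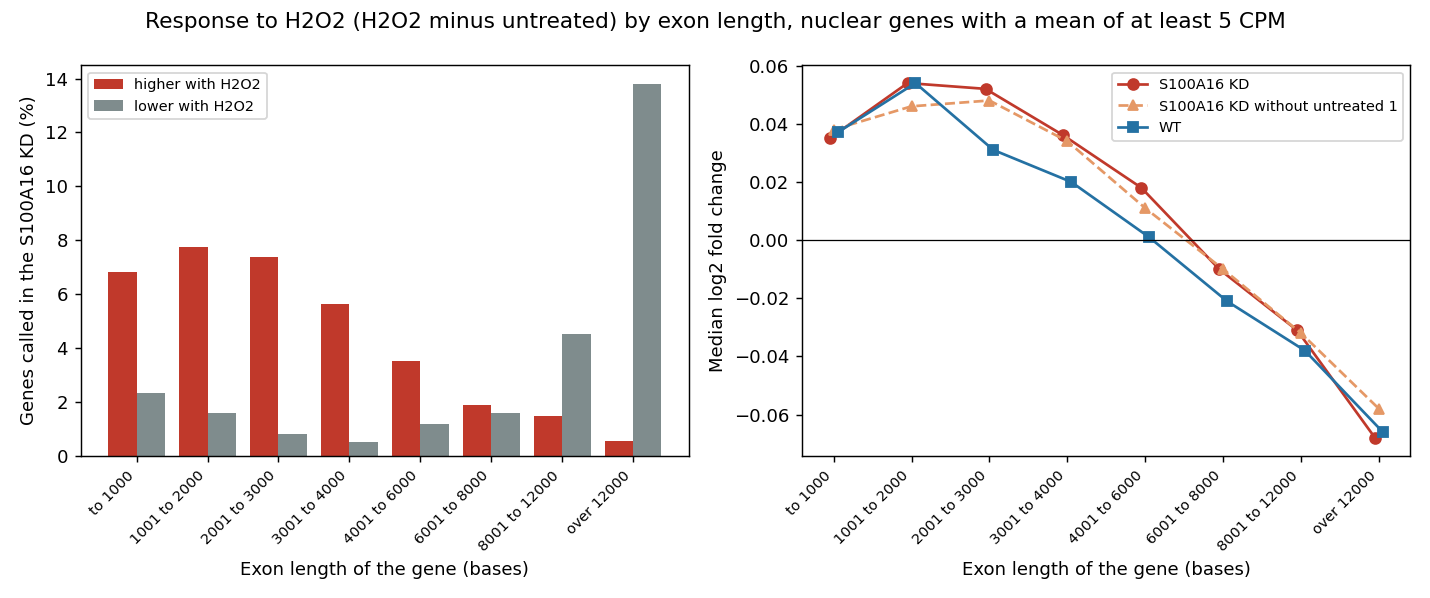
Left, share of nuclear genes averaging 5 CPM or more called higher (red) and lower (grey) with H2O2 in the S100A16 KD, in percent, by exon length (x axis, bases). Right, median log2 fold change per length class in the KD, in the KD without KD untreated 1 and in WT, with the KD going to -0.07 in the class over 12000 bases.

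**Figure D5:**
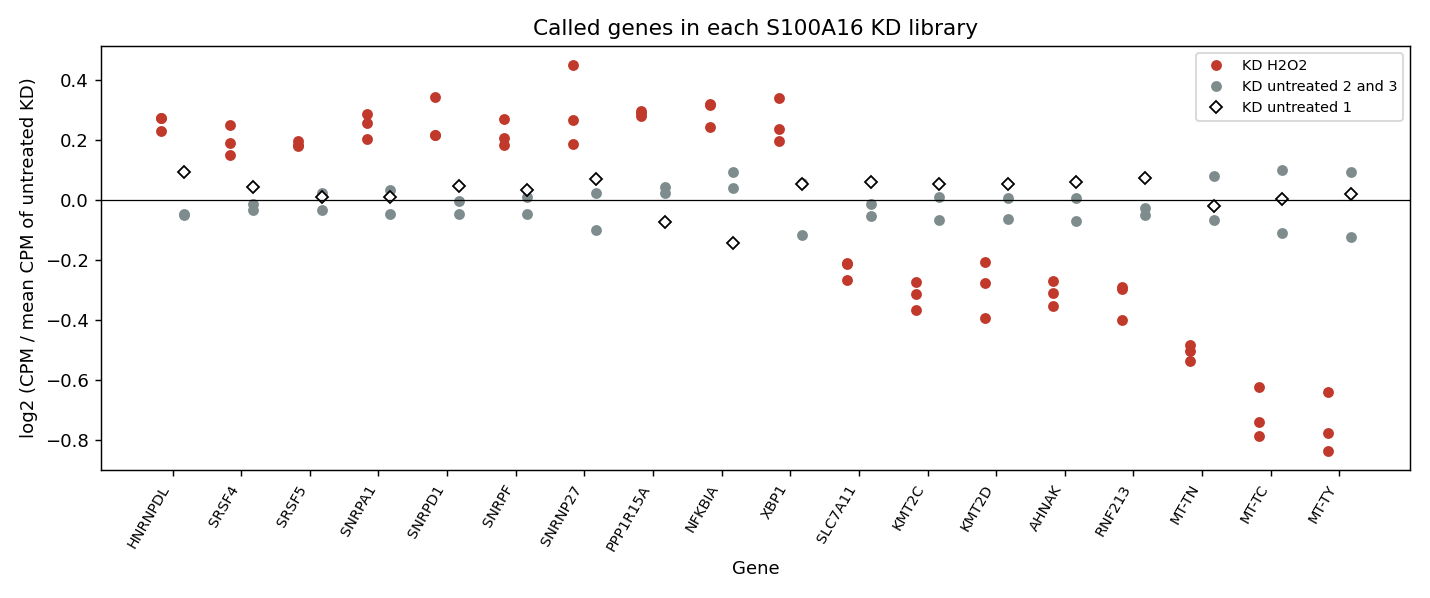
Log2 of each library's CPM over the mean of the untreated KD (y axis) for 18 genes that were kept throughout (x axis), with KD H2O2 libraries in red, KD untreated 2 and 3 in grey and KD untreated 1 as open diamonds. Red points lie apart from the others in every gene shown, above 0 for the first 10 and below 0 for the last 8.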

How the data were processed

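For each of 44016 genes the authors deposited raw counts of reads, gene coordinates, an exon length and RPKM. The submitters' processing notes name HISAT2 2.2.1, StringTie 2.1.4, DESeq2 1.32.0, SAMtools 1.15.1 and FastQC 0.11.9, and the build GRCh38 (hg38), without roles. Which program counted reads, with which annotation and strand setting, was not stated. The deposited RPKM values equalled counts scaled by exon length and total for 100% of 531539 values above 0 (relative tolerance 0.001), and were not used further. Per-sample columns left unused numbered 0. Of counts from 1 to 19, 20.5% to 22% were odd in KD libraries; whether both mates of a pair were counted was not stated.

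Exons of 53 of the 117 genes named by rule overlap those of another gene, whose reads may be included.

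Libraries were grouped by labels alone. Counts of the 6 KD libraries were tested with edgeR 4.0.16 (R 4.3.3): TMM, filterByExpr, robust quasi-likelihood F test, Benjamini-Hochberg over all 20586 genes tested, threshold 0.05. The interaction, (KD H2O2 minus KD untreated) minus (WT H2O2 minus WT untreated), was fitted on 12 libraries. Steps were tested on simulated data. Total counts alone shifted the median of all log2 fold changes by -0.03. Alternatives were other libraries in the fit, scalings, filters, DESeq2 1.42.0, limma-voom (limma 3.58.1), halved counts, short RNAs left out, a replicate block, and 1 library left out at a time; fits on 12 and 15 libraries and offsets for exon length were added after seeing the data.

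Members and gene lists were chosen with earlier results of these data known. Named genes were S100A16, HMOX1, TXNRD1, EGR1 and FOS; the 10 highest and 10 lowest log2 fold changes and the 5 smallest adjusted p in each direction among genes with a symbol, a mean of at least 5 CPM and groups that do not overlap, called with and without KD untreated 1; 3 called members of each list in its main direction and 1 in the other; the 10 smallest adjusted p of the interaction; and the 5 most abundant short RNAs. Other genes were named after their values were seen: CTGF, ATF3, DUSP1, HNRNPM, MAGOH, UPF3A, HNRNPA1, SNRNP35, KMT2A, HUWE1, ATF4, DDIT3, CXCL5, ABCC3, NQO1, MTND1P23, MTCO1P12 and the mitochondrial genes. A gene that the rule names is not reported here.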

Additional observations from a re-analysis of the deposited data

Results flagged for a closer look

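The response to H2O2 differed between the S100A16 KD and WT, by the interaction of edgeR's quasi-likelihood test over all genes, in 48 genes that were named by rule or chosen after their values were seen. The values are the log2 response of the KD minus that of WT. Of the 48 calls, 26 held in all 12 fits that left out 1 library. Immediate early and feedback genes, the inflammatory gene PTGS2, the ATF4 program gene PPP1R15A and the YAP target ANKRD1 responded less in the KD: EGR1 (-3.826), FOS (-2.833), FOSB (-3.009), NR4A1 (-2.541), JUN (-1.395), IER2 (-1.302), ZFP36 (-1.209), DUSP1 (-1.259), IER3 (-0.863), KLF10 (-0.858), PTGS2 (-0.835), CTGF (-0.829), CYR61 (-0.697), ATF3 (-0.677), PPP1R15A (-0.571) and ANKRD1 (-0.243). Other genes with a lower response in the KD were MUC6 (-0.899), LIF (-0.456), BCL3 (-0.424), S100A4 (-0.383), S100A16 (-0.359), CCND1 (-0.201) and NQO1 (-0.189). Genes of RNA processing with a higher response in the KD were CLK1 (0.922), EPB41L4A-AS1 (0.284), PYM1 (0.275), SNRPA1 (0.243), UPF3A (0.239), HNRNPDL (0.229), SRSF4 (0.212), RSRC1 (0.208) and HNRNPM (0.202). Other genes with a higher response in the KD were GABPB1 (0.427), GADD45A (0.389), ABCB9 (0.307), MCM3 (0.231) and HSP90AB1 (0.178). Among mitochondrial genes the value was higher for MT-TT (0.454), MT-TQ (0.417), MT-TL2 (0.392), MT-ND2 (0.313), MT-TG (0.301), MT-ND3 (0.261), MT-ND5 (0.254) and MT-ND4 (0.199), and lower for MT-TF (-0.654). It was also lower for nuclear copies of mitochondrial sequence, MTCO1P12 (-0.436) and MTND1P23 (-0.333).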

How the results depend on the processing

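Counts of called genes depended most on which libraries estimate the spread. With H2O2 in the KD, 471 genes were called higher and 330 lower. These became 0 and 3 with all 18 libraries in the fit, 298 and 66 with the 15 libraries that do not stand apart, and 232 and 511 by total counts alone. Leaving out 1 library gave 149 to 493 higher and 154 to 342 lower calls. For the interaction, with 98 higher and 158 lower calls, all 18 libraries gave 4 and 17. The higher calls were 43 by total counts alone, 159 with RLE size factors, 235 with no filter beyond 1 count, 285 by DESeq2 and 56 without robust estimation. Leaving out 1 library gave 28 to 317 higher and 84 to 175 lower interaction calls. No printed log2 fold change of a called gene reversed under any alternative that was run. Of 98 named genes called in the KD, 45 stayed called in all 6 fits with 1 library left out. The cause of these changes was not tested. Fits on 12 and 15 libraries and exon-length offsets were chosen after seeing the data.

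Whether the replicate numbers pair the libraries cannot be settled with 3 libraries a group, and the main fit took them as unpaired. Deviations from the group means correlated at -0.026, -0.009 and 0.068 between same-numbered KD libraries, and at -0.054 to 0.056 between the others. A replicate block gave 703 higher and 497 lower calls in the KD, with 800 of the 801 main calls among them. In the interaction it gave 218 higher and 207 lower calls.

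With 3 libraries a group, the smallest p of an exact permutation test is 0.1, and differences in genes at a few CPM, such as EGR1 and FOSB in the KD, were measured with wide errors.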

Other observations

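Targets of YAP and TEAD, transcription factors that respond to cell shape and contact, gave 4 higher and 0 lower calls of 22 in the S100A16 KD. These were CYR61, CTGF, ANKRD1 and AMOTL2 (18.2%, against 2.29% of all genes tested and 9.4% of genes averaging 50 CPM or more). Of the 22, 14 were positive, 6 had all H2O2 libraries above all untreated ones, and 6 had them all below. Of genes averaging 50 CPM or more, 64.4% were positive, 27.9% lay above and 11.6% below. Over all genes tested these shares were 48.8%, 10.8% and 10.6%. The median log2 fold change of the 22 was 0.04, and 0.006 without KD untreated 1, against -0.004 over all genes tested. With a smooth trend in exon length removed, 2 of the 4 calls held. AMOTL2, a feedback inhibitor of YAP, had 117, 118 and 116 CPM in KD H2O2 libraries, against 97.2, 102 and 95.3 CPM in untreated KD libraries (log2 0.26, adjusted p = 4.27e-05, kept throughout). ANKRD1 had 486, 454 and 451 CPM with H2O2, against 380.9, 425 and 402 CPM untreated (log2 0.20, adjusted p = 0.00296, kept throughout, but lost in the fit of 15 libraries). Neither gene's groups overlapped. Of the keratins listed to check the line, KRT8, KRT18 and KRT7 were called higher. KRT19 was not, with 38, 28 and 22 reads with H2O2 and 42, 28 and 34 untreated. KRT8 had 6259, 6512 and 6593 CPM with H2O2, against 5530, 5463 and 5865 CPM untreated (log2 0.20, adjusted p = 0.00206, kept throughout). KRT18 (0.17, adjusted p = 0.00966) lost its call without KD H2O2 2 or KD untreated 2 at up to 0.0849. KRT7 (0.16, adjusted p = 0.0114) lost its call without KD H2O2 2 or KD untreated 1 at up to 0.108. The exons of KRT8 overlap those of KRT18.

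Single members moved in lists that were otherwise little changed. NFKBIA, the inhibitor of NF-kB, had 73.9, 70.1 and 73.8 CPM with H2O2, against 53.6, 63.1 and 60.8 CPM untreated (log2 0.29, adjusted p = 0.000322, kept throughout), and CXCL5, a chemokine, rose by 0.19 (adjusted p = 0.00375, kept throughout). In the same list of 28, LIF, BCL3 and TNFSF14 fell by 0.18, 0.27 and 0.26 (adjusted p = 0.0306, 0.00727 and 0.00238). The shares of this list were 7.14% higher and 10.7% lower, against 9.4% and 4.17% of genes averaging 50 CPM or more. The LIF call was lost in each of the 6 fits with 1 library left out, that of BCL3 without KD H2O2 3 or KD untreated 3, and that of TNFSF14 without KD H2O2 2. XBP1, a transcription factor of the unfolded protein response, had 193, 213 and 198 CPM with H2O2, against 175, 155 and 175 CPM untreated (log2 0.26, adjusted p = 0.000484, kept throughout, and 0.115 in the fit of 12 libraries). It was the 1 call of 22 genes of that response (4.55% higher, against 9.4% of genes averaging 50 CPM or more).

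Of 47 DNA replication genes, 3 rose and 1 fell (6.38% higher, against 2.29% of all genes tested and 9.4% of genes averaging 50 CPM or more), and 42 had a positive log2 fold change, against 64.4% of genes averaging 50 CPM or more. The 3 calls became 1 without KD untreated 2 and 5 without KD H2O2 3. MCM3, of the replicative helicase, had 277, 270 and 253 CPM with H2O2, against 233, 232 and 237 CPM untreated (log2 0.19, adjusted p = 0.0024, kept throughout). The cyclin gene CCND1 fell by 0.14 (adjusted p = 0.0274, lost without KD H2O2 1, KD H2O2 2, KD untreated 1 or KD untreated 2). USP18, which restrains interferon signalling, rose by 0.30 (adjusted p = 0.00229, kept throughout). Of 45 interferon-stimulated genes 2 rose (4.44%, against 2.29% of all genes tested), and without KD untreated 3, 7 rose. Of 28 heat shock genes, HSP90AB1 rose (0.14, adjusted p = 0.0246) and HSPA1A, HSPH1 and CHORDC1 fell (-0.14, -0.14 and -0.15), and none of these 4 calls was kept throughout. The list's shares were 3.57% higher and 10.7% lower, against 9.4% and 4.17% of genes averaging 50 CPM or more. The S100 family, 13 genes, gave 1 lower call (7.69%, against 1.6% of all genes tested). It was that of S100A4 (-0.19, adjusted p = 0.0266), lost in 5 of the 6 fits with 1 library left out, KD untreated 3 being the exception.

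Among genes with a symbol in the reference that averaged 5 CPM or more, TPD52L1 had the highest log2 fold change of those called both with and without KD untreated 1, with 13.2, 14.5 and 13 CPM with H2O2, against 8.93, 10.7 and 10.3 CPM untreated (log2 0.44, adjusted p = 0.00103, kept throughout). Its exons overlap those of HDDC2.

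The short RNAs that set KD untreated 1 apart included RN7SK, the 7SK RNA, with 6.14, 7.19 and 7.80 CPM in KD H2O2 libraries, against 197, 9.25 and 16.97 CPM in untreated KD libraries (adjusted p = 0.391). Replication-dependent histone genes gave 0 calls of 17. Their median was -0.26 with that library and -0.02 without it. These transcripts largely lack poly(A) tails.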
